A study of Mus musculus with 10 samples.

Results

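Intermediate filament genes were followed in whole testes of 10 day old mice: the simple epithelial keratins Krt18, Krt8 and Krt19, vimentin (Vim), nestin (Nes), and the nuclear lamins Lmna and Lmnb1. They were chosen by name, as the probe sets (groups of short probes that read 1 transcript) whose annotation lists 1 of these 7 genes and no other. All 7 genes were found, with 17 probe sets, among 12393 genes named on the array. SCARKO mice have lost the androgen response of Sertoli cells, the somatic cells of the seminiferous tubule, selectively, and the control mice carried AMHCre, a Cre transgene under the anti-Müllerian hormone promoter. Each of the 10 arrays held RNA from 1 testis of each of 3 littermates, pooled, with 5 control and 5 SCARKO pools matched as littermate pairs. Neither the strain nor any further allele is stated in the labels. The tissue is whole testis, so fewer cells of a type and less RNA per cell cannot be told apart.

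Intermediate filaments are rope-like polymers that give cells and nuclei mechanical strength. Keratins assemble only as pairs of an acidic and a basic chain, and keratin 18 (acidic) with keratin 8 (basic) is the pair of simple epithelia. Vimentin is the filament of mesenchymal cells and the lasting one of Sertoli cells, nestin is typical of progenitor and vascular cells, and lamins line the inner nuclear membrane. Keratin 18 is made by fetal and immature Sertoli cells and is normally lost as they mature, which is why it serves as a marker of their immature state.

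Signals were on a linear scale and came scaled: leaving out the 2% highest and 2% lowest values, each array had a mean of 100. Medians per array ran from 36.4 to 37.6, and 6.73% to 7.99% of the values were under 1. The descriptions of 8 arrays, pairs 1 to 4, name the other genotype than their titles, and both labels agree for the 2 arrays of pair 5. Groups below follow the titles. Rhox5, an X-linked homeobox gene that androgen induces in the Sertoli cell, had a signal of 178.2 ± 61.7 in control and 9.48 ± 1.91 in SCARKO pools (SD, n = 5). No value of the targeted gene is given, so genotypes were taken from the labels alone. Of 8 Sertoli cell identity genes with a named probe set, such as Sox9, Gata4 and Dmrt1, all 8 were above the dim limit described next. At most 1.68% of values were identical between any pair of arrays, and each was counted as its own sample.

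A probe set was tested only if its mean log2 signal over the 10 arrays was in the upper part of the array, with the lowest 40% left out. That limit lay at a mean log2 signal of 4.27, a signal of 19.3, and 13576 probe sets passed it. Of the 17 member probe sets, 8 passed, from Krt18, Vim, Lmna and Lmnb1, and 9 did not, among them every one of Krt8, Krt19 and Nes. In limma with the littermate pair as a block, 1 of the 8 was called at an adjusted p under 0.05, Krt18, with the higher signal in SCARKO, and 7 were not. Krt18 was in the tested set only through its SCARKO pools, with its control pools under the limit, so nothing is read from this count. Over the array, 1.93% of tested probe sets were called higher, 3.26% lower and 5.19% in either direction. At an unadjusted p under 0.05 stood 2 of the 8 members, against 20.9% of all tested probe sets. Without the limit 0 of the 17 were called (0.168% of all probe sets) and 2 had an unadjusted p under 0.05, against 14.8% of all. With groups from the descriptions 0 members were called, as 0.0% of all tested probe sets were, and 4.5% of those had an unadjusted p under 0.05.

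The stretches just upstream of Krt18, its partner Krt8 and Vim are shown because Krt18 was the called member, Krt8 is the protein-coding gene next to it on chromosome 15, and Vim had the least spread. Each is 250 bases that end at the base before the RefSeq start of the gene, from RefSeq on the assembly GRCm38.p6, 5′ to 3′ on the strand of the gene. They lie at chr15:102027966-102028215 (plus strand), chr15:102004343-102004592 (minus strand) and chr2:13574061-13574310 (plus strand). Capitals mark matches on either strand to any of 5 motifs. They were the core of the TATA box, spelled TATAAA, the CCAAT box, the GC box, spelled GGGCGG, the AP-1 site, spelled TGACTCA and on its other strand TGAGTCA, and the core of the androgen response element, spelled AGAACA.
Krt18: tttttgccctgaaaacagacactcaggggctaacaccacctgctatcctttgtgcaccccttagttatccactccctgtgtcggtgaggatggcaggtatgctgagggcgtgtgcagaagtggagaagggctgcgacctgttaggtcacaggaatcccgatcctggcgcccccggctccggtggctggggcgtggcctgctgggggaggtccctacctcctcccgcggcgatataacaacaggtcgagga
Krt8: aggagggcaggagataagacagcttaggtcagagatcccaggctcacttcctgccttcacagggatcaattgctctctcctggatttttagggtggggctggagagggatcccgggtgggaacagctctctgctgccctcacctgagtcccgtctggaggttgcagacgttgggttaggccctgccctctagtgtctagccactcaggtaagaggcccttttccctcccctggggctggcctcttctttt
Vim: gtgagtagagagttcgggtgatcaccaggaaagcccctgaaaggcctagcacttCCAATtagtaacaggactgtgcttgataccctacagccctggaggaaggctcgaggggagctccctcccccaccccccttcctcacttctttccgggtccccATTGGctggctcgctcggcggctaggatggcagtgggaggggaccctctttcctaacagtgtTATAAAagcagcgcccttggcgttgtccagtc
Neither keratin window held any of these letters, while that of Vim held TATAAA from base -32 to -27 and CCAAT letters at -196 and, on the other strand, at -94. Among 32851 windows of the same length, 12.4% held TATAAA, 33.8% CCAAT, 32.7% GGGCGG, 4.46% an AP-1 site and 16.1% AGAACA. A match describes letters and not a bound site.

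Krt18 (gene ID 16668, chromosome 15) had signals of 15.4, 23.2, 14.1, 15.2 and 10.6 in control pools 1 to 5 and of 39.4, 29.6, 23.1, 28.3 and 31.1 in SCARKO pools 1 to 5. SCARKO was higher in each of the 5 pairs, and the groups overlapped only in that control pool 2, at 23.2, lay just above SCARKO pool 3, at 23.1. The means were 15.7 ± 4.61 and 30.3 ± 5.91 (SD, n = 5). The log2 difference was 0.97 (SE 0.17, 95% interval 0.60 to 1.35), 1.96-fold. It passed with the dim limit (limma adjusted p = 0.0079) and did not pass without it (adjusted p = 0.13). The pair on which titles and descriptions agree, pair 5, had the widest log2 ratio, 1.55, and pair 2 the narrowest, 0.35. An exact sign-flip permutation test over the 5 pairs gave p = 0.0625, two-sided, which is the smallest p that 5 pairs allow.

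Krt18 was a weak signal, and this touches its size and its call. Its mean log2 signal was 3.93 in control pools, under the limit of 4.27, and 4.90 in SCARKO pools, so it was tested because of the SCARKO pools. Of the tested probe sets, 2.6% had a lower mean. With 16 added to each signal before log2, which damps weak values, the change was 0.55 (SE 0.10, adjusted p = 0.0075). The fit without the dim limit, where its unadjusted p was 0.0030, called 38 of 22626 probe sets, and a limit that left out the lowest 60% left out Krt18 as well. With the limit as set, the call held without each pair in turn, with changes from 0.83 to 1.13 and adjusted p from 0.0037 to 0.040. Quantile normalization gave 0.95 and an adjusted p of 0.0089. The fits with 16 added, with a pair left out and after quantile normalization kept the same tested probe sets. They do not check the entry of Krt18 through its SCARKO pools.

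**Figure D1:**
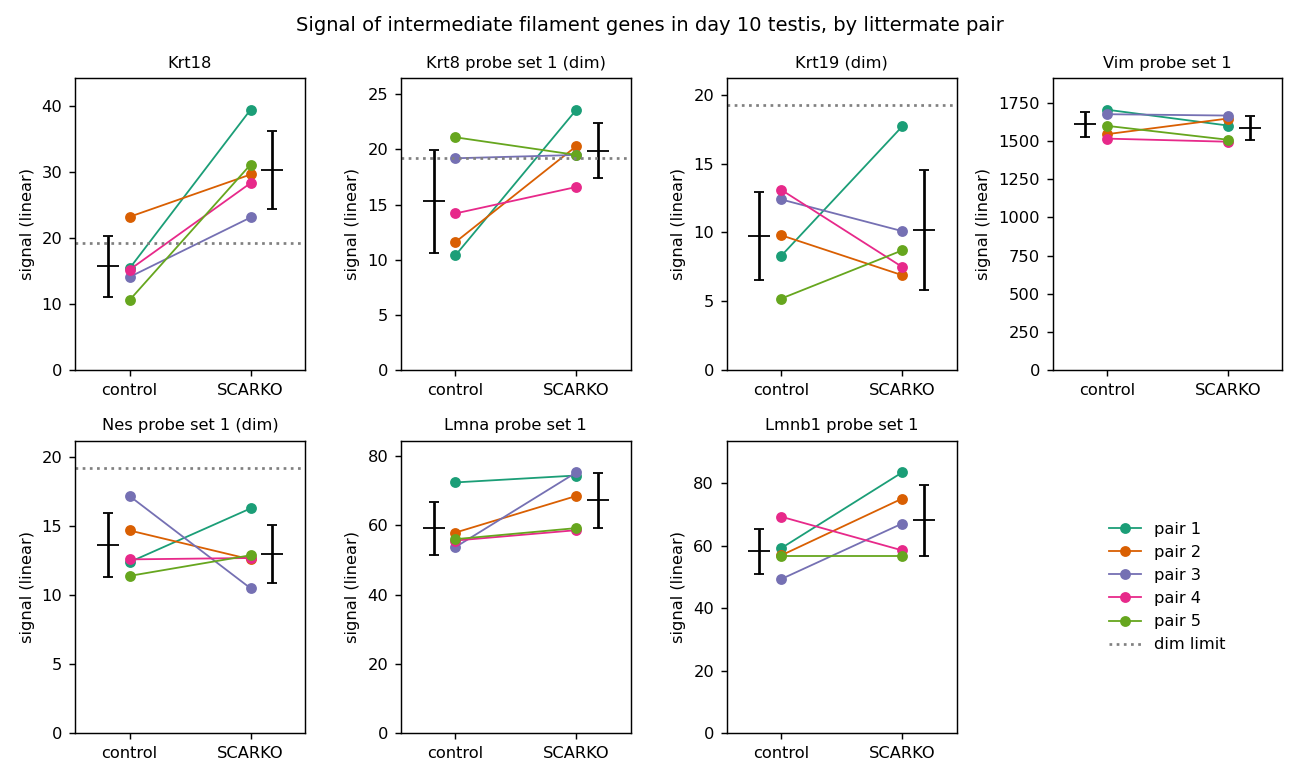
Signal of the brightest probe set of each of the 7 genes (vertical axes, linear and from 0) in control and SCARKO pools; coloured lines join littermate pairs, black bars are mean ± SD (n = 5) and dotted lines mark the dim limit of 19.3. All 5 Krt18 lines rise, from 10.6 to 23.2 in control to 23.1 to 39.4 in SCARKO pools, while Vim stays between 1495 and 1705.

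Krt8 (gene ID 16691), the basic partner of keratin 18, was read by 3 probe sets that all lay under the dim limit, so its changes come from the fit without that limit. The brightest had signals of 10.4, 11.6, 19.2, 14.2 and 21.1 in control pools 1 to 5 and of 23.6, 20.3, 19.5, 16.6 and 19.5 in SCARKO pools 1 to 5. SCARKO pools were the more even group, at 16.6 to 23.6, control pools were low in pairs 1 and 2, and the groups overlapped. The log2 difference was 0.42 (SE 0.22, 95% interval -0.13 to 0.98; adjusted p = 0.46), positive in 4 of 5 pairs. The other probe sets differed by 0.47 (SE 0.33) and 0.82 (SE 0.65), positive in 3 and 2 pairs, at adjusted p of 0.58 and 0.61. Both are of the x_at type, whose probes can also bind related transcripts. The interval of the brightest holds both no change and one as large as that of Krt18.

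Krt19 (gene ID 16669, chromosome 11), an acidic keratin that can also pair with keratin 8, ranged from 5.2 to 13.1 in control pools and from 6.9 to 17.7 in SCARKO pools. The means were 9.76 ± 3.20 and 10.2 ± 4.38 (SD, n = 5), and SCARKO was higher in 2 pairs and lower in 3. Its log2 difference in the fit without the limit was 0.05 (SE 0.33, 95% interval -0.77 to 0.86; adjusted p = 0.97).

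The 5 probe sets of these 3 keratins shared their highest pool. Krt18 at 39.4, Krt8 at 23.6, 20.0 and 21.7, and Krt19 at 17.7 were each highest, of the 10 pools, in SCARKO pool 1. That pool was highest for 1627 of 13576 tested probe sets, for 1164 of 9050 under the dim limit and for 4 of the 44 probe sets of other keratins. This was noticed after the values were seen and has no test. Without pair 1 Krt18 was still called, with a change of 0.88 and an adjusted p of 0.040. Ducts, the rete testis and the surface mesothelium also make these keratins. Summed over 11 duct and epithelial markers, signals were 892.8 to 932.4 in control and 858.4 to 942.6 in SCARKO pools, 942.6 being SCARKO pool 1. Most of each sum came from Spint2, at 370.1 to 424.0, and Epcam, at 203.6 to 236.6. Of these 11, Cldn3 and Esrp1 were highest in that pool, at 19.6 and 118.8. Cldn3, a dim claudin gene, read 7.5 to 16.2 in control and 10.7 to 19.6 in SCARKO pools, and Esrp1, an epithelial splicing factor gene, 97.5 to 103.0 and 103.1 to 118.8 (log2 change 0.16, adjusted p = 0.15). Other genes of the list went both ways. Krt7 and Elf3 were higher in SCARKO in 4 pairs and Pax8 in 3. Epcam, Cldn4, Cldn7 and Spint2 were lower in 4 pairs, and Cdh1 and Spint1 in 3. Over 4 mesothelial markers sums were 177.3 to 219.3 and 182.8 to 233.6, 206.4 in SCARKO pool 1, and none of the 4 was highest there. Most of each mesothelial sum came from Bnc1, at 138.5 to 151.6 in control and 144.2 to 158.1 in SCARKO pools. Which cells of the whole testis gave the Spint2, Epcam and Bnc1 signals was not tested, so the sums do not measure duct or mesothelial cells alone. Of the duct and epithelial markers 6 of 11 lay under the dim limit, and of the mesothelial markers 2 of 4. The part of duct, epithelial and mesothelial cells in the keratin values was not tested.

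Vim (gene ID 22352, chromosome 2) was bright and differed little between the groups. Its brightest probe set had signals of 1704.7, 1544.5, 1675.2, 1515.4 and 1599.0 in control pools 1 to 5 and of 1600.9, 1647.0, 1666.3, 1495.1 and 1508.0 in SCARKO pools 1 to 5. The groups overlapped almost wholly, with means of 1608 ± 81.5 and 1583 ± 78.6 (SD, n = 5). Its log2 change was -0.02 (SE 0.04, 95% interval -0.10 to 0.06; adjusted p = 0.78). The other 2 probe sets gave -0.07 each, at adjusted p of 0.32 and 0.37, with 95% intervals from -0.16 to 0.01 and from -0.15 to 0.02. Probe set 3 was lower in SCARKO in all 5 pairs (exact sign-flip permutation p = 0.0625), and the other 2 in 4 of 5. After quantile normalization probe set 1 differed by -0.080, probe set 2 by -0.10 and probe set 3 by -0.096, with adjusted p of 0.23, 0.14 and 0.16. Without that normalization all 3 intervals lay between -0.16 and 0.06 on the log2 scale.

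Nes (gene ID 18008, chromosome 3) stayed under the dim limit in all 3 of its probe sets. The one with the highest mean log2 signal ranged from 11.4 to 17.2 in control and from 10.5 to 16.3 in SCARKO pools, a log2 difference of -0.07 (SE 0.19; adjusted p = 0.90 without the limit). The next read 11.0, 4.1, 20.4, 18.5 and 15.4 in control pools 1 to 5 against 4.4, 18.3, 4.8, 4.4 and 4.7 in SCARKO pools 1 to 5. It was lower in SCARKO in 4 pairs and turned round in pair 2, so the difference of -1.01 (SE 0.68) did not pass (adjusted p = 0.56). The dimmest did not exceed 3.9 on any array.

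The lamins had tested probe sets with small positive values that did not pass. For Lmna (gene ID 16905, chromosome 3), which encodes lamins A and C, the brightest probe set had signals of 72.4, 57.9, 53.7, 55.6 and 56.0 in control pools 1 to 5 and of 74.4, 68.5, 75.3, 58.6 and 59.2 in SCARKO pools 1 to 5. SCARKO was higher in all 5 pairs, by as little as 0.04 in pair 1 and as much as 0.49 in pair 3, and the groups overlapped. The log2 difference was 0.19 (SE 0.09, adjusted p = 0.25). The other tested one gave 0.14 (SE 0.14, adjusted p = 0.60), higher in 3 pairs, and -0.0035 without pair 2. The 2 under the dim limit differed by -0.52 (SE 0.67) and -0.44 (SE 0.61). Which lamin isoform each probe set reads was not determined here.

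Lmnb1 (gene ID 16906), the B-type lamin that stays bound to the nuclear membrane, gave like values from its 2 probe sets. The dimmer read 37.7, 36.0, 30.5, 44.8 and 41.0 in control pools 1 to 5 and 40.3, 46.7, 42.9, 44.9 and 46.4 in SCARKO pools 1 to 5. It was higher in SCARKO in each pair, by 0.0032 in pair 4 and 0.49 in pair 3, with a log2 difference of 0.23 (SE 0.10; unadjusted p = 0.041, adjusted p = 0.21). The brighter had means of 58.3 ± 7.21 and 68.2 ± 11.3 (SD, n = 5) and a log2 difference of 0.22 (SE 0.11, adjusted p = 0.29), higher in 3 pairs, lower in 1 and equal at 56.6 in pair 5. No member probe set separated the groups without overlap, which 4.52% of tested probe sets did.

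**Figure D2:**
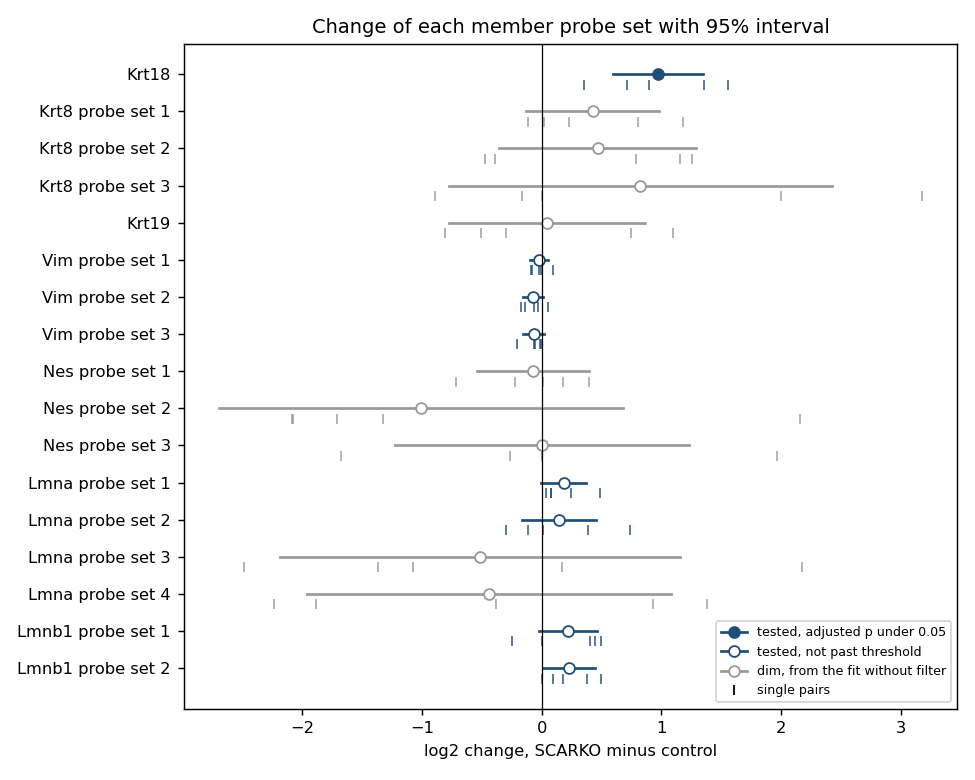
Log2 change (SCARKO minus control) of each of the 17 member probe sets with its 95% interval; ticks under each bar are single pairs, blue bars are tested probe sets and grey bars those under the dim limit. Krt18 at 0.97 is the 1 filled point, and the Vim bars are the narrowest, within -0.16 and 0.06.

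Whether Krt18 changed differently from the other members was tested on the differences of log2 ratios within pairs, with the brightest probe set of each gene. Krt18 exceeded Vim by 1.00 ± 0.56, Krt19 by 0.93 ± 0.52, Nes by 1.04 ± 0.36 and Lmna by 0.79 ± 0.62 (mean ± SD, n = 5), in every pair. It exceeded Lmnb1 by 0.75 ± 0.65 and Krt8 by 0.55 ± 0.78 in 4 of 5 pairs. Exact sign-flip permutation tests gave p = 0.0625 for Vim, Krt19, Nes and Lmna (0.094 adjusted over 6 comparisons), 0.125 for Lmnb1 (0.15 adjusted) and 0.188 for Krt8 (0.188 adjusted). Since 5 pairs cannot give a p below 0.0625, none could pass 0.05. The difference from Krt8 ran from -0.46 in 1 pair to 1.67 in another, so the partners were not shown to differ.

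**Figure D3:**
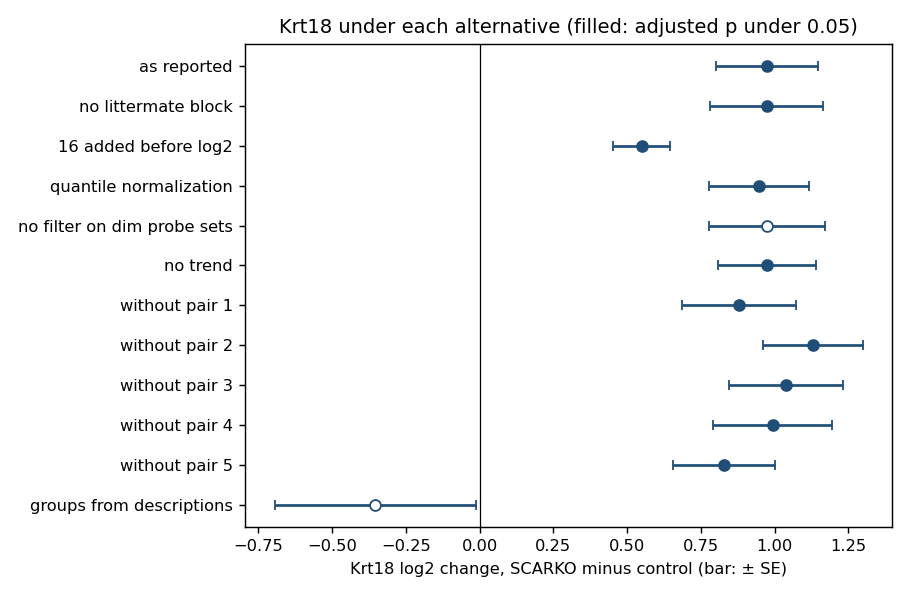
Krt18 log2 change (SCARKO minus control) with its SE under each way of processing; filled points had an adjusted p under 0.05. Points with groups from the titles lie between 0.55 and 1.13, and the point with groups from the descriptions lies at -0.35.

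Genes around these filaments were read from lists, each gene by its brightest tested probe set. Over all 7973 genes tested, 5.69% were called, 2.17% higher and 3.52% lower, with a median log2 change of 0.016. Other keratins were almost all dim: of 37 on the array, 35 lay under the limit and neither of the 2 tested was called. Krt10, an epidermal keratin, had a log2 change of 0.11 (adjusted p = 0.56) and Krt81, a hair keratin, one of 0.01 (adjusted p = 0.99). In the fit without the limit no dim keratin passed. Only Krt83, with means of 2.02 and 3.82, and Krt31, with 4.76 and 7.08, had an unadjusted limma p under 0.05 there. Both were higher in SCARKO in all 5 pairs, by 0.99 (adjusted p = 0.18) and 0.64 (adjusted p = 0.325). Of all probe sets, 14.8% had an unadjusted p under 0.05 in that fit. Of 10 other filament genes on the array 4 were tested and none called, with a list median of -0.02. Log2 changes were 0.12 for the neuronal filament gene Ina (adjusted p = 0.56) and -0.20 for the muscle filament gene Des (adjusted p = 0.60). The 6 under the limit did not pass without it. Of these, Nefl (0.79, adjusted p = 0.25) and Nefm (0.37, adjusted p = 0.28) had an unadjusted p under 0.05, higher in SCARKO in 4 and 5 pairs.

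Among linkers that tie filaments to junctions and to other filaments, 2 of 8 tested genes were called, both higher, with a list median of 0.14. Of all genes tested, 2.17% were called higher and 5.69% in either direction. Just short of the threshold, Dst was higher by 0.33 (adjusted p = 0.055) and Macf1 lower by 0.22 (adjusted p = 0.0506). Pkp4, a plakophilin-related protein of cell junctions (gene ID 227937), rose from 100.8 ± 11.1 to 125.3 ± 4.43 (SD, n = 5), a log2 change of 0.32 (SE 0.07, adjusted p = 0.017). Its control pools, 89.0 to 113.4, lay below its SCARKO pools, 118.9 to 131.1, and 4.52% of tested probe sets had no overlap. The other tested probe set of Pkp4 gave 0.17 (adjusted p = 0.39). Itga6, the α6 integrin of basal adhesions (gene ID 16403), rose from 328.1 ± 25.4 to 378.7 ± 30.0 (SD, n = 5), a log2 change of 0.21 (adjusted p = 0.024) in all 5 pairs. Pkp4 was not called when pair 1 (adjusted p = 0.066) or pair 3 (0.074) was left out. Itga6 was not called when pair 1, 2, 3 or 5 was left out (0.051 to 0.097), nor without the littermate block (0.14) or the trend (0.094), and its other tested probe set gave 0.22 (0.096). Without the dim limit neither gene passed (Pkp4 0.091, Itga6 0.086).

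The other 9 linkers on the array lay under the dim limit, and their values come from the fit without it. There 0 of the 9 passed and 3 had an unadjusted p under 0.05, against 14.8% of all probe sets. These 3 were chosen for description after their values were seen, and all are desmosome genes. Dsc2, the cadherin gene desmocollin 2 (gene ID 13506), had signals of 7.0, 16.6, 9.9, 8.5 and 7.2 in control pools 1 to 5 and of 21.7, 28.9, 22.5, 18.5 and 33.5 in SCARKO pools 1 to 5. Its groups did not overlap, which held for 4.52% of tested probe sets and was not counted over all dim ones. The log2 difference was 1.39 (SE 0.23; unadjusted p = 0.0010, adjusted p = 0.089), higher in 5 of 5 pairs. Dsg2, its partner cadherin gene desmoglein 2 (gene ID 13511), had signals of 8.0, 16.7, 6.3, 11.0 and 5.6 in control pools 1 to 5 against 23.3, 14.3, 23.4, 19.7 and 25.7 in SCARKO pools 1 to 5. It was higher in 4 pairs and lower in pair 2, with a log2 difference of 1.25 (SE 0.38, adjusted p = 0.23). Dsp, the gene of desmoplakin, which anchors keratin filaments at desmosomes (gene ID 109620), averaged 13.8 ± 2.95 and 22.1 ± 6.85 (SD, n = 5), a log2 difference of 0.66 (SE 0.18, adjusted p = 0.20) with 4 pairs higher. The log2 differences of Dsc2 and Dsg2 were above that of Krt18, and that of Dsp below it, which was not tested. Of Ppl, Eppk1, Pkp1, Pkp3, Fam83h and Itgb4 none had all 5 pairs on 1 side, and adjusted p ran from 0.57 to 0.83. Other desmosome genes of the list did not pass. Pkp1 and Pkp3 differed by -0.37 and 0.50, and the tested Jup by 0.11 (adjusted p = 0.69) and Pkp2 by 0.16 (adjusted p = 0.25).

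Among 16 tested lamina partners and lamin-processing genes, 1 was called, against 5.69% of all genes tested, with a list median of -0.0045. Sun2, an inner nuclear membrane protein that links the lamina to the cytoskeleton (gene ID 223697), fell from 240.1 ± 12.3 to 177.4 ± 10.5 (SD, n = 5). Control pools held 219.3 to 250.8 and SCARKO pools 161.0 to 189.1, with no overlap, as in 4.52% of tested probe sets. The log2 change was -0.44 (SE 0.06, adjusted p = 0.0019), and it passed without each pair in turn (adjusted p from 0.0015 to 0.012). Without the dim limit it did not (adjusted p = 0.054). Its relative Sun1 had a log2 change of -0.0023 (adjusted p = 0.99).

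Among 5 other tested markers of the immature Sertoli cell, limma called 0 higher and 1 lower, against 2.17% and 3.52% of all genes tested. The list median was -0.17. None was higher at an unadjusted p under 0.05. Id2, an inhibitor of differentiation factors (gene ID 15902), fell from 324.6 ± 41.2 to 278.9 ± 43.5 (SD, n = 5), a log2 change of -0.22 (adjusted p = 0.029) that did not pass without any 1 of the 5 pairs (0.056 to 0.11), without the littermate block (0.31), the trend (0.0997) or the dim limit (0.11). Its other tested probe set gave -0.09 (adjusted p = 0.62). Amh, the anti-Müllerian hormone gene, had signals of 30.1 ± 11.4 in control and 17.5 ± 2.71 in SCARKO pools (SD, n = 5). The log2 difference was -0.71, lower in all 5 pairs, and did not pass (adjusted p = 0.065). The SCARKO mean of Amh lay under the dim limit, so it was in the tested set only through its control pools. The 5 tested markers and their list median include Amh, and nothing is read from its adjusted p. Id3 differed by -0.17 (adjusted p = 0.16), Pdpn by -0.00051 and Thra by -0.0030, and Ncam1 was under the dim limit.

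Of 8 tested markers of maturing Sertoli cells, 4 were called lower and none higher, with a list median of -0.17. Over all genes tested, 3.52% were called lower. The list was chosen with earlier results of these data known, and it holds Rhox5, so nothing is read from this count. Rhox5 fell by 4.17 on the log2 scale (adjusted p = 6.1e-06), the tight junction gene Cldn11 by 0.68 (adjusted p = 0.00029), the transcription factor gene Gata1 by 0.50 (adjusted p = 0.0079) and the cell cycle inhibitor gene Cdkn2d by 0.25 (adjusted p = 0.027). Rhox5 was in the tested set only through its control pools, since its SCARKO pools, at 7.9 to 12.7, lay under the dim limit, and without that limit its adjusted p was 0.047. Without it Cldn11 (0.054), Gata1 (0.12) and Cdkn2d (0.070) did not pass. Rhox5, as Pem, is among the labels' keywords, so its direction is not independent evidence. Cdkn2d was not called when pair 1, 3, 4 or 5 was left out (adjusted p = 0.055 to 0.12), nor without the littermate block (0.15) or the trend (0.055). Among 8 identity genes, Fshr, the FSH receptor gene, rose by 0.42 (adjusted p = 0.026), and did not pass when pair 1, 2 or 4 was left out (0.068 to 0.090), without the trend (0.067) or without the dim limit (0.15).

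With 5.69% of all genes tested called, lists of 2 to 7 genes would hold few calls or none. A lack of calls in such lists therefore does not show that a cell type was unchanged. Markers of the other testicular cells held no call when each gene was read by its brightest probe set. There were 7 of germ cells, 5 of Leydig cells and 6 of peritubular myoid cells. A further 6 were of endothelium, 7 of macrophages, 5 of duct epithelium and 2 of mesothelium. Their list medians were 0.041, -0.030, -0.12, -0.032, 0.11, -0.046 and 0.093. The smallest p belonged to Uchl1 (0.13) and Sycp3 (-0.21) in germ cells, Hsd17b3 (0.50) and Hsd3b1 (0.05) in Leydig cells, and Mylk (-0.17) and Tpm2 (-0.13) in myoid cells, given as log2 changes. In the other lists these were Sox18 (0.19) and Cdh5 (-0.19), C1qa (0.17) and C1qc (0.25), Esrp1 (0.16) and Epcam (-0.09), and Bnc1 (0.06) and Upk3b (0.12). For these 14 probe sets no adjusted p was under 0.083, and the highest was 0.69. Of 2 further tested probe sets of Mylk, the myosin light chain kinase gene, 1 was called (-0.22, adjusted p = 0.039) and 1 was not (-0.29, adjusted p = 0.22). Without pair 2 Tpm2 passed, at -0.19 (adjusted p = 0.047).

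**Figure D4:**
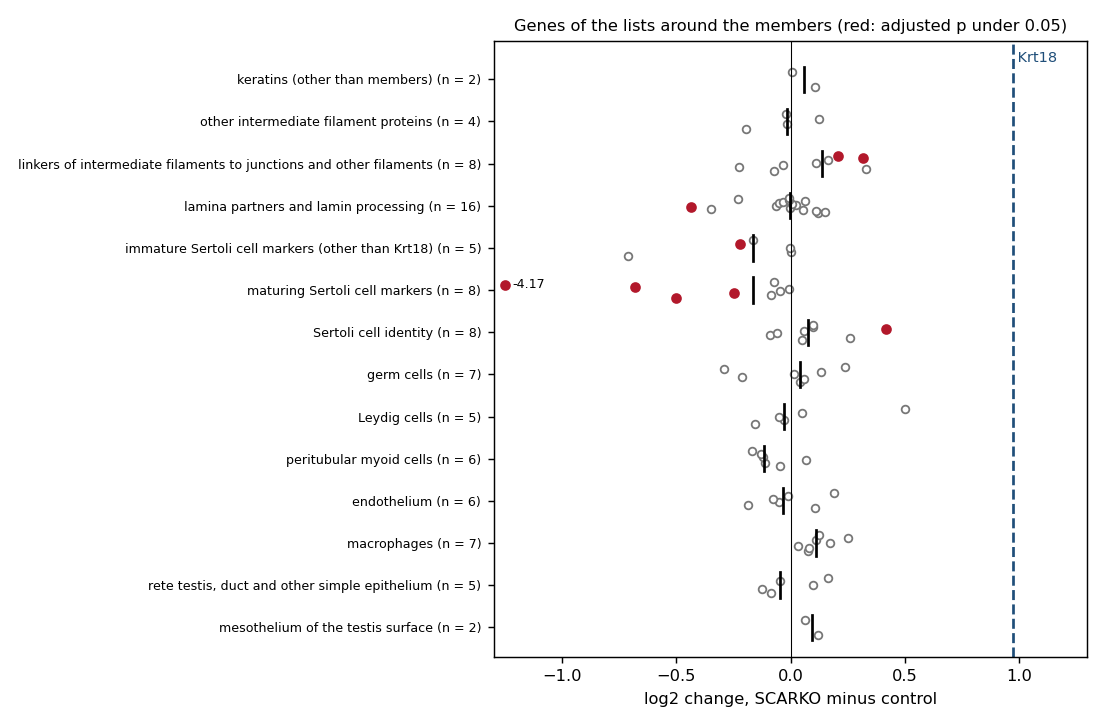
Log2 change (SCARKO minus control) of each tested gene in 14 lists around the members; red points had an adjusted p under 0.05, black bars are list medians and the dashed line is Krt18 at 0.97. Rhox5 at -4.17 is drawn at the left edge with its value. No tested gene of these lists reached the Krt18 value. Genes under the dim limit are not drawn.

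The genes most like Krt18 in pattern were sought by Pearson's r of log2 signal over the 10 arrays, among 7972 other genes. The highest were Rgs11, a regulator of G protein signalling (r = 0.93), Tmem11 (0.92), the ephrin receptor gene Epha2 (0.92), the translation repressor gene Eif4ebp1 (0.92) and Jtb (0.92). Of these, Rgs11 rose by 0.55 (adjusted p = 0.0057) and Epha2 by 0.74 (adjusted p = 0.0024), while Tmem11 (0.09), Eif4ebp1 (0.18) and Jtb (0.12) did not pass. Without the dim limit Rgs11 (0.075) and Epha2 (0.069) did not pass either. This measure keeps the group difference and so favours genes that rise with Krt18, and their calls are not independent of that choice. With the group means subtracted, which leaves the spread within groups, the highest were 1700123O20Rik (r = 0.93), Glis1 (0.92), Tmem11 (0.92), Ccng2 (0.90) and Rttn (0.89), none of which was called. All points share arrays, and such values were picked as the highest of all. Of the 3 Krt8 probe sets, r with Krt18 on this second measure was -0.43, 0.29 and 0.60, in order of brightness.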

How the data were processed

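Expression was measured on Affymetrix arrays in 10 pools of testis RNA. The deposited values are linear signal intensities, 1 per probe set, made with MAS5 per the submitters' processing notes for 8 arrays; those notes name no tool for the 2 arrays of pair 5. Values under 1 were set to 1, log2 was taken, and limma 3.58.1 in R 4.3.3 was fitted over all 13576 probe sets kept of 22626, with the pair as a block, an intensity trend, two-sided tests and Benjamini-Hochberg adjustment. The method was tested on simulated data. Probe sets were named from the platform annotation, with symbols updated to GRCm38.p6, as 1 gene (20380), several (691) or none (1555, unnamed here); 29 of the first kept their older symbol. A gene was read by its probe set with the highest mean log2 signal.

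The pairing comes from the labels' protocol of littermate pools; deviations of same-numbered pools correlated at 0.28, 0.19, 0.19, 0.11 and 0.39 for pairs 1 to 5. Named genes are the members, up to 6 called genes of each list or, where none was called, the 2 with the smallest p, and the 5 most like Krt18 by either measure. Genes given beyond that rule, to name members of a count or a list, were chosen after their values were seen. Members and lists were chosen with earlier results of these data known. An intensity has no counting depth, so 5 pools per group limit the precision. Alternatives were no block, another offset, quantile normalization, other dim limits, no trend, each pair left out and groups from the descriptions.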

Additional observations from a re-analysis of the deposited data

Results flagged for a closer look

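Within groups of 5 pools, 6 of 106 examined sets of values held a pool whose gap to the next made up more than 0.71 of the group's range, where chance gives about 5%. Nes probe set 2 read 18.3 in SCARKO pool 2 against 4.4 to 4.8 in the other SCARKO pools. Nes probe set 3 read 3.9 in SCARKO pool 4 against 0.4 to 0.6. Lmna probe set 1 read 72.4 in control pool 1 against 53.7 to 57.9. Cdh5 read 19.8 in SCARKO pool 1 against 24.4 to 26.0. Glis1 read 37.1 in SCARKO pool 3 against 45.9 to 48.6, and Rttn 31.9 in SCARKO pool 1 against 27.7 to 28.3.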

How the results depend on the processing

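The direction and the call of Krt18 held without the littermate block (0.97, adjusted p = 0.013), with 16 added, after quantile normalization, without the trend (adjusted p = 0.034) and without each pair in turn (0.83 to 1.13). All of these settings kept Krt18 in the tested set, which it entered through its SCARKO pools. Without the dim limit the change was 0.97 at an adjusted p of 0.13, and 0 members were called; with the lowest 60% left out Krt18 was not tested and 0 were called. The probe sets called over the array, 704, numbered 404 without the replicate block, 321 without the trend, 38 without the dim limit and 304 to 743 with a pair left out. Genes called in the lists, 9, numbered 1 (Rhox5) without the dim limit, 5 without the trend and 5 to 10 with a pair left out. Besides the calls named above, the block ended no call among members and named genes. The members called numbered 1 with any pair left out. Differences of Krt18 from Krt8 ran from 0.27 to 0.80 with a pair left out, from Krt19 from 0.73 to 1.09, from Vim from 0.84 to 1.18, from Nes from 0.95 to 1.16, from Lmna from 0.62 to 0.96 and from Lmnb1 from 0.55 to 0.96.

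With a pair left out, signs turned for Upk3b (-0.015 without pair 1, up to 0.22 without others), Krt81 (-0.17 without pair 2, up to 0.13) and Lmna probe set 2 (-0.0035 without pair 2, up to 0.25). With groups from the descriptions limma called 0 probe sets, 0 members and 0 list genes, with 4.5% of probe sets at an unadjusted p under 0.05. Log2 changes were then -0.35 for Krt18, 0.061 for Vim probe set 2, 0.066 for Vim probe set 3, -0.15 for Lmna probe set 1, -0.26 for Lmna probe set 2, -0.22 for Lmnb1 probe set 1 and -0.16 for Lmnb1 probe set 2. Negative values were those of Krt10 (-0.044), Krt81 (-0.21), Ina (-0.11), Pkp4 (-0.24), Itga6 (-0.12), Fshr (-0.33), Uchl1 (-0.032), Hsd17b3 (-0.18), Hsd3b1 (-0.058), Sox18 (-0.057), C1qa (-0.11), C1qc (-0.24), Esrp1 (-0.089), Bnc1 (-0.058), Upk3b (-0.097), Rgs11 (-0.31), Tmem11 (-0.0070), Epha2 (-0.39), Eif4ebp1 (-0.052), Jtb (-0.069) and Rttn (-0.026). Positive values were those of Des (0.20), Sun2 (0.20), Id2 (0.10), Rhox5 (2.39), Cldn11 (0.33), Gata1 (0.14), Cdkn2d (0.14), Sycp3 (0.19), Mylk (0.13), Tpm2 (0.070), Cdh5 (0.12) and Epcam (0.080). Krt18 minus the other gene was -0.60 for Krt19, -0.34 for Vim, -0.49 for Nes, -0.20 for Lmna and -0.13 for Lmnb1. For Krt8 the difference stayed positive. This grouping turns the sign of pairs 1 to 4 and keeps that of pair 5. Weak signals limit Krt8, Krt19 and Nes most: none of their probe sets passed the dim limit.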
